A study of Mus musculus with 3 samples.

Results

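The genes described here encode the proteins that sit closest to Toll-like receptor 4 (TLR4) when a macrophage senses bacterial lipopolysaccharide: the co-receptors Cd14 and Ly96, the adaptors Myd88, Tirap, Ticam1 and Ticam2, and the kinase family Irak1, Irak2, Irak3 and Irak4. These 10 genes were taken by name, by a rule that uses no measured value, from the 55536 annotated genes of the gene tables, and all 10 were found. Their RNA was measured in the chromatin fraction of bone-marrow-derived macrophages, primary cells grown from mice of strain C57BL/6J, that had been given lipid A at 100 ng/ml for 20 min. Lipid A is the part of lipopolysaccharide that TLR4 recognises. Total RNA of the fraction was depleted of ribosomal RNA and sequenced in 3 libraries that form 1 group, made from 1000 ng (replicate 1), 250 ng (replicate 2) and 500 ng (replicate 3) of RNA. All 3 libraries were treated with lipid A, so the values are levels after treatment and no induction was measured. Each library has a biosample of its own and all share the same donor entry. The labels leave unsaid whether the cells came from separate animals, and sex and age were not collected.

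CD14 is a surface protein that takes lipopolysaccharide from its carrier in serum and passes it to MD-2, the product of Ly96, which holds the lipid in a pocket against TLR4. The activated receptor then recruits adaptors through TIR domains in pairs. TIRAP brings MYD88 to the plasma membrane, where MYD88 assembles IRAK4 with IRAK1 and IRAK2 and leads to NF-kB, and TICAM2 (also called TRAM) brings TICAM1 (also called TRIF), which leads to IRF3 and type I interferon. IRAK3, also called IRAK-M, is known as an inhibitor of this signalling in macrophages. RNA in the chromatin fraction is enriched for transcripts still attached to their genes, so unspliced and partly spliced forms are part of what is counted.

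Partly spliced forms are annotated for most of these genes, and the sequences that set them apart from the spliced messenger RNA are given first because the levels below turn on them. GENCODE M21, the annotation on which the tables were built, lists 57 transcripts for the 10 genes, and 8 of the genes have at least 1 transcript that is not protein coding, mostly of the type called retained intron. In the sequences below, which come from the GENCODE M21 transcripts, 5′ to 3′, lower case marks coding sequence of an exon and capitals mark bases that are intron in the protein-coding transcripts. Myd88-203 (chromosome 9, minus strand) keeps an intron of 389 bases and another of 160 bases, and the first 25 bases of each are shown after the last 25 coding bases (chr9:119338551-119338600 and chr9:119337981-119338030, GRCm38).
Myd88-203: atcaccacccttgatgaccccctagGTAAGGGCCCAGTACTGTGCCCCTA
Myd88-203: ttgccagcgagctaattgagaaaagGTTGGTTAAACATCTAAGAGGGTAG
Irak1-215 keeps a whole intron of 91 bases (chrX:74022357-74022497, minus strand) and Irak1-220 a whole intron of 76 bases (chrX:74023509-74023634, minus strand), each shown with 25 coding bases on both sides.
Irak1-215: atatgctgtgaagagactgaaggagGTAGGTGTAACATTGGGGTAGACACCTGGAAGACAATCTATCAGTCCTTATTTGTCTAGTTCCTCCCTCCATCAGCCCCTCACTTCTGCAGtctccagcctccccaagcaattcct
Irak1-220: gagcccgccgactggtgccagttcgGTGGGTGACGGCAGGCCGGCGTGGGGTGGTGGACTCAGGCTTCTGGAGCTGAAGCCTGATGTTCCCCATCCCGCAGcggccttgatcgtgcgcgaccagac
Irak2-208 (chr6:113665822-113665871, plus strand), Irak4-203 (chr15:94556667-94556716, plus strand), Irak3-204 (chr10:120165068-120165117, minus strand) and Ly96-203 (chr1:16691749-16691798, plus strand) run out of a coding exon and end inside the intron that follows it.
Irak2-208: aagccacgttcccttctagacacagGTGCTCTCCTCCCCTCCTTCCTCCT
Irak4-203: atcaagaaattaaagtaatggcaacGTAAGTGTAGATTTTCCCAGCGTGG
Irak3-204: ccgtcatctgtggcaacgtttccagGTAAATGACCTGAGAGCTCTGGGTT
Ly96-203: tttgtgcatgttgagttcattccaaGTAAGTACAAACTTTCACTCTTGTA
Each of these stretches of intron begins with GT, the usual first bases of an intron. A read that crosses from lower case into capitals can come from such a transcript or from RNA that has not been spliced yet, and the 2 sources cannot be told apart in these tables. Tirap and Ticam1 have protein-coding transcripts only.

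Before the levels, the libraries were compared. Gene tables held 16317439, 16245280 and 12439931 expected counts (read counts estimated per gene, which need not be whole) in replicates 1, 2 and 3. Levels are given in TPM, a transcript abundance that is scaled for transcript length and for the total of the file. Small nucleolar RNAs took 55.7%, 46.4% and 40.4% of all TPM in replicates 1, 2 and 3, while the share of protein-coding genes ran from 15.8% in replicate 1 to 24.7% in replicate 3. TPM of a coding gene was therefore usually highest in replicate 3, with a median ratio of 1.69 to replicate 1 and 1.45 to replicate 2 over the 8942 coding genes at or above 1 TPM in every library. For that reason libraries are compared below by CPM, counts scaled to the library total without regard to length, with TMM factors (1 factor per library that centres most genes). All 10 macrophage markers examined reached 1 TPM in every library, with a summed level of 600.2 to 821 TPM. None of 23 markers of neutrophils, T and NK cells, B cells, dendritic cells, fibroblasts, endothelial cells and mast cells did, and Ly6g, Cd3e, Cd3d and Mcpt4 had no counts. The highest summed level of such a marker list in any library was 1.57 TPM, for dendritic cells.

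The co-receptor Cd14 was the most abundant of the 10 genes and varied the most, and 9 of the 10 genes, all but Tirap, reached 1 TPM in every library, against 40.6% of the 22028 coding genes. With the authors' posterior mean TPM, or in the second set of tables described below, Tirap did so as well. The median over the 10 genes was 8.62 ± 2.88 TPM (SD, n = 3). Over all coding genes that median was 0.41 ± 0.157 TPM (SD, n = 3), and over coding genes that reached 1 TPM in every library it was 9.01 TPM.

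**Figure D1:**
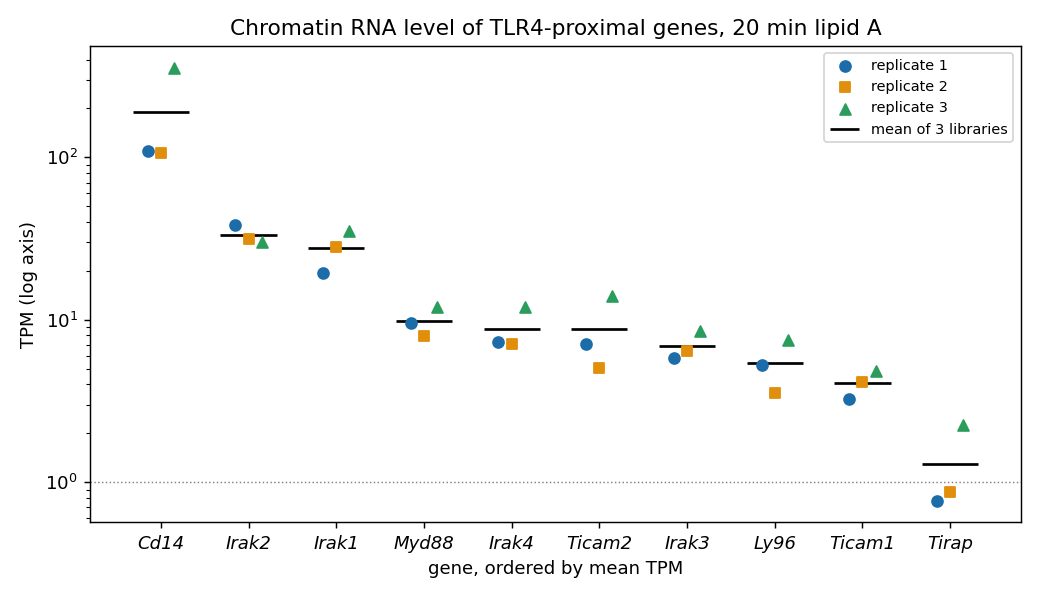
TPM (log axis) of the 10 genes in each of the 3 libraries, with the mean as a bar and a dotted line at 1 TPM, genes ordered by mean. Cd14 stood above the other 9 genes in every library, and Tirap lay below 1 TPM in replicates 1 and 2 and at 2.26 TPM in replicate 3.

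Of the co-receptors, Cd14 (ENSMUSG00000051439.7, chromosome 18, 36725067 to 36726798, minus strand, GRCm38) had 108.87, 106.19 and 357.03 TPM in replicates 1, 2 and 3, with a mean of 191 ± 144 TPM (SD, n = 3). Replicates 1 and 2 were close to each other and replicate 3 stood well above both, and without replicate 3 the mean was 107.5 TPM. Cd14 held 53.0%, 53.0% and 73.8% of the summed TPM of the 10 genes in the 3 libraries, and its mean was 5.74 times that of Irak2, the next gene. Its lowest library was 2.79 times the highest value of any other of the 10 genes. Ly96, the gene of MD-2 (ENSMUSG00000025779.10, chromosome 1, 16688051 to 16709611, plus strand), had 5.23, 3.52 and 7.49 TPM, with a mean of 5.41 ± 1.99 TPM (SD, n = 3). Ly96 was thus far below Cd14 in every library, and it rested on the fewest reads of the 10 genes, with 67, 30 and 42 expected counts. In CPM over the library total these were 4.11 (95% exact binomial interval 3.18 to 5.21), 1.85 (1.25 to 2.64) and 3.38 (2.43 to 4.56), and such intervals cover counting error only. The intervals of replicates 1 and 2 did not overlap.

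Among the adaptors, Myd88 and Ticam2 had about the same level, Ticam1 was lower and Tirap the lowest. Myd88, the adaptor shared by most Toll-like receptors and the IL-1 receptor (ENSMUSG00000032508.8, chromosome 9, 119335934 to 119341411, minus strand), had 9.57, 7.92 and 11.93 TPM, with a mean of 9.81 ± 2.02 TPM (SD, n = 3). Tirap, which anchors MYD88 at the membrane (ENSMUSG00000032041.15, chromosome 9, 35184551 to 35200291, minus strand), had 0.77, 0.87 and 2.26 TPM, the lowest values of the 10 genes in each library. The mean was 1.30 ± 0.833 TPM (SD, n = 3), and 0.82 TPM without replicate 3. Its expected counts were 75.71, 80.49 and 119.29, more than those of Ly96, and its main transcript is longer (4589 bases against 632), by which TPM divides. Ticam1 (ENSMUSG00000047123.8, chromosome 17, 56269319 to 56276786, minus strand), the adaptor of the interferon arm, had 3.27, 4.13 and 4.85 TPM, with a mean of 4.08 ± 0.791 TPM (SD, n = 3). Ticam2, its bridge to the receptor (ENSMUSG00000056130.10, chromosome 18, 46557291 to 46574533, minus strand), had 7.08, 5.03 and 14.02 TPM, with a mean of 8.71 ± 4.71 TPM (SD, n = 3). Ticam2 was above Ticam1 in all 3 libraries. Its range overlapped that of Myd88.

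Of the kinases, Irak2 and Irak1 were the highest, and Irak4 and the inhibitory Irak3 lay at lower levels that overlapped. Irak2 (ENSMUSG00000060477.14, chromosome 6, 113638467 to 113695026, plus strand), which sustains signalling after IRAK1, had 38.12, 31.29 and 30.29 TPM, with a mean of 33.2 ± 4.26 TPM (SD, n = 3). It was the only 1 of the 10 genes that was not highest in replicate 3 by TPM. Irak1 (ENSMUSG00000031392.18, chromosome X, 74013914 to 74023918, minus strand), the kinase that IRAK4 phosphorylates, had 19.49, 28.14 and 35.42 TPM, with a mean of 27.7 ± 7.98 TPM (SD, n = 3). Irak2 was above Irak1 in replicates 1 and 2 and below it in replicate 3, so that the 2 kinases were not separated in gene-level TPM. Irak4, the first kinase of the complex (ENSMUSG00000059883.16, chromosome 15, 94543643 to 94581815, plus strand), had 7.31, 7.05 and 11.94 TPM, and Irak3 (ENSMUSG00000020227.10, chromosome 10, 120141648 to 120202130, minus strand) had 5.80, 6.40 and 8.55 TPM. Irak4 was above Irak3 in each library, with ranges that overlapped. The mean of Irak1 was 3.16 times that of Irak4.

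By mean TPM the order ran from Cd14 through Irak2, Irak1, Myd88, Irak4, Ticam2, Irak3, Ly96 and Ticam1 to Tirap. With 3 libraries, the smallest p that an exact sign-flip test can give is 0.25, so neighbours were called separate only where their ranges over the libraries did not overlap. This held for 3 of the 9 neighbouring pairs, which were Cd14 over Irak2, Irak1 over Myd88, and Ticam1 over Tirap. The mean log2 differences were 2.28 ± 1.11, 1.47 ± 0.41 and 1.72 ± 0.57 (SD, n = 3 libraries). From Myd88 to Ticam1 the ranges of all neighbours overlapped, with mean log2 differences of 0.10 to 0.39. Of all 45 pairs, 34 had separate ranges and 39 were in the same order in every library. Ranges take in the TPM scaling that genes of a library share, so a pair in constant order could still overlap.

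The transcripts behind this order were described next, by the share of each gene's TPM in transcripts that are not protein coding, which are retained-intron forms, processed transcripts (annotated without a reading frame) and forms marked for nonsense-mediated decay. That share was largest for Irak2, at 86.5%, 76.6% and 71.4% in replicates 1, 2 and 3, and smallest for Irak4 among the 8 genes that have such a transcript, at 33.5%, 38.2% and 33.2%. Over 7710 coding genes that have such a transcript and were detected, the median share was 51.2 ± 1.48% (SD, n = 3). The median of the 8 genes was 53.1%, and Irak2 lay at percentile 87.1 of those coding genes. Myd88 had 65.2 ± 3.6%, Cd14 60.6 ± 5.1%, Irak1 54.6 ± 3.2% and Ticam2 49.2 ± 4.2% (SD, n = 3 for each). Ly96 had 51.5 ± 5.4% and Irak3 51.3 ± 11.6% (SD, n = 3 for each). In Irak3 the libraries of the gene-table set did not sit together, with 60.2%, 55.6% and 38.1%. Those of the second set did, with 63.2%, 61.9% and 62.8%. Above 50% in every library of the gene-table set were 4 genes, namely Cd14, Myd88, Irak1 and Irak2. The share of Irak2 was made up of 51.7% retained-intron forms, 23.9% processed transcripts and 2.6% forms marked for decay. By retained-intron forms alone Myd88 (65.2 ± 3.6%), Cd14 (60.6 ± 5.1%) and Irak1 (52.5 ± 4.9%) had higher means than Irak2 (51.7 ± 3.0%; SD, n = 3 for each). TPM weights short transcripts more than reads do. By expected counts, Myd88 had the largest share in such transcripts, 70.7 ± 3.3%, followed by Ly96 with 53.5 ± 5.2% (SD, n = 3 for each). Irak2 came after these with 42.7 ± 12.1%, Cd14 had 41.2 ± 5.1% and Irak4 14.8 ± 1.7% (SD, n = 3 for each).

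**Figure D2:**
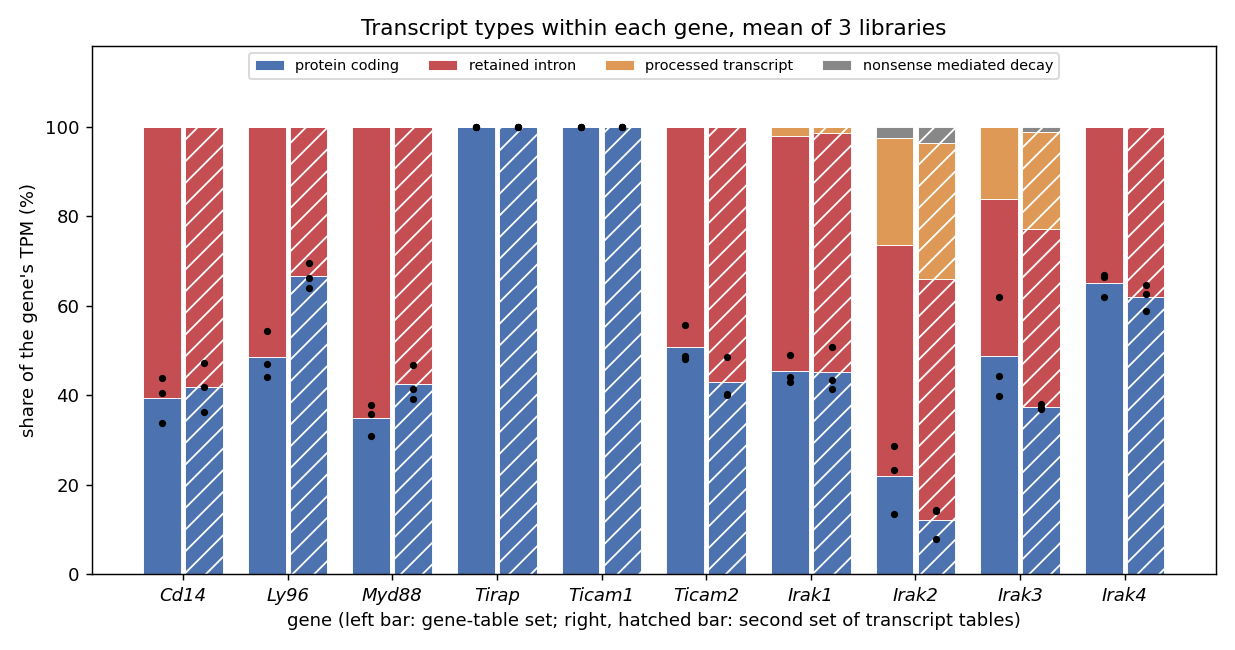
Share of each gene's TPM by transcript type, as the mean of 3 libraries, with a dot for the protein-coding share of each library; the left bar is from the gene-table set and the hatched right bar from the second set of transcript tables. Irak2 had the smallest protein-coding share in both sets, and Tirap and Ticam1 consisted of protein-coding transcripts only.

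Protein-coding transcripts taken alone gave another order of the kinases. Coding transcripts of Irak1 summed to 8.59, 13.80 and 15.23 TPM and those of Irak2 to 5.14, 7.32 and 8.67 TPM in replicates 1, 2 and 3. Irak1 was thus above Irak2 in each library, 1.67, 1.89 and 1.76 times. Their ranges still overlapped by a narrow margin. In the second set of tables coding transcripts of Irak1 were also above those of Irak2 in each library. Cd14 stayed first, with 44.10, 35.92 and 156.36 TPM in its coding transcript, 5.13, 2.60 and 10.3 times Irak1. Myd88 went from rank 4 to rank 8, with 3.62, 2.83 and 3.68 TPM, and Tirap stayed last. The only neighbours with separate ranges in this order were Cd14 and Irak1, 1 of 9 pairs.

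Single transcripts show what lies behind these shares. Cd14 has 2, the coding Cd14-201 (366 amino acids) and Cd14-202, a single exon of 868 bases of which 91 lie outside the coding transcript. Cd14-202 had 64.77, 70.27 and 200.66 TPM, so both transcripts of Cd14 were highest in replicate 3. Whether both transcripts were higher in that library cannot be told from this, because reads from shared bases are divided between them by estimate. All but 91 bases of Cd14-202 are shared with Cd14-201, which is 1641 bases long. Myd88-203, with the 2 introns printed above, had 5.95, 5.09 and 8.26 TPM, above the coding Myd88-201 (296 amino acids) with 3.62, 2.83 and 3.68 TPM in every library. The other coding transcript, Myd88-202, was listed at 0 in every library of both sets. Ly96-203 had 2.93, 1.61 and 3.97 TPM and the coding Ly96-201 (160 amino acids) 2.30, 1.92 and 3.52 TPM, so the larger of the 2 changed between libraries. Ticam2-202, of whose 2010 bases 1588 lie outside the coding exons, had 3.14, 2.58 and 7.27 TPM, close to the coding Ticam2-201 (232 amino acids) with 3.94, 2.45 and 6.75 TPM.

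In Irak2 the largest transcript by mean was Irak2-208, with 13.41, 8.24 and 7.73 TPM. The processed transcript Irak2-206 had 10.75, 4.81 and 5.21 TPM, the retained-intron form Irak2-204 5.24, 2.98 and 4.46 TPM, and the full-length coding Irak2-201 (622 amino acids) had 4.96, 5.19 and 8.67 TPM. Irak2-201 was below Irak2-206 in replicate 1 and above it in replicates 2 and 3, and in replicate 3 it was also above Irak2-208. This was not so in the second set of tables, where Irak2-201 had 5.28, 5.59 and 9.49 TPM. There Irak2-206 had 25.71, 14.93 and 27.44 TPM and Irak2-208 had 39.94, 20.15 and 31.40 TPM, both above Irak2-201 in every library. By TPM of the gene-table set, Irak2-201 was highest in replicate 3 and the other 3 in replicate 1, as was the gene-level TPM of Irak2. By expected counts Irak2-201 was highest in replicate 1 too, with 414.17, 324.84 and 354.93. In the second set Irak2-206 was highest in replicate 3. Irak1 spread over the most transcripts. Its coding Irak1-204 (710 amino acids) was the largest by mean with 6.23, 10.06 and 7.05 TPM. Irak1-215, which keeps the 91-base intron printed above, had 2.93, 4.12 and 7.25 TPM, just above Irak1-204 in replicate 3. Irak1-220, with the 76-base intron, had 3.07, 1.92 and 3.59 TPM. Irak1-206, coding for 711 amino acids, had 1.04, 1.06 and 6.69 TPM, and in replicate 3 alone it came near Irak1-204. The retained-intron form Irak1-218 had 2.04, 3.01 and 4.33 TPM, and Irak1-201, coding for 750 amino acids, had 0.41, 1.33 and 0.69 TPM. The coding Irak4-201 (459 amino acids) had 2.51, 2.74 and 3.17 TPM and the coding Irak4-202 (453 amino acids) 2.35, 1.62 and 4.80 TPM. Irak4-203 had 2.45, 2.69 and 3.97 TPM, so by mean TPM of the gene-table set Irak4 was divided about evenly between these transcripts. It was not in the second set, where Irak4-201, Irak4-202 and Irak4-203 held 43.1%, 18.9% and 38.0%. By expected counts of the gene-table set Irak4-203 held 14.8%. Irak3-204 had 2.62, 2.80 and 1.40 TPM and the coding Irak3-201 (609 amino acids) 1.12, 1.59 and 3.92 TPM, so the retained-intron form led in replicates 1 and 2 and the coding form in replicate 3. The shorter coding Irak3-205 (517 amino acids) had 1.19, 1.25 and 1.37 TPM, close to each other, but 88.25, 69.67 and 49.95 expected counts. In the second set Irak3-205 had 1.11, 0.456 and 1.70 TPM. The processed transcript Irak3-203 had 0.87, 0.76 and 1.86 TPM in the gene-table set. Irak3-204 stayed above Irak3-201 in every library of the second set of tables, at 4.31 against 3.27 TPM in replicate 3. Of the genes with coding transcripts only, Ticam1 has 1, Ticam1-201 (732 amino acids), which carries the values of the gene. Tirap-201 (249 amino acids) had 0.48, 0.87 and 1.71 TPM, and Tirap-207, with the same number of amino acids, was listed at 0 in replicates 1 and 2 and had 0.54 TPM in replicate 3. Of the 57 transcripts, 13 were at 0 TPM in every library of the gene-table set.

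The libraries differed in several of these genes beyond their shared scaling, and Cd14 did so the most. By TPM 9 of the 10 genes were highest in replicate 3, as were 88.9% of the detected coding genes. By TMM-scaled CPM 4 of the 10 were (Cd14, Tirap, Ticam2 and Irak3), against 34.0% of the coding genes tested. Cd14 had 183, 143 and 338 TMM-scaled CPM in replicates 1, 2 and 3, so replicate 3 was 1.85 times replicate 1 and 2.37 times replicate 2, where TPM gave 3.28 and 3.36 times. Set as log2 against the mean of the other libraries, replicate 3 of Cd14 was higher by 1.07, which placed it at percentile 99.1 of the 13985 genes tested, and 125 genes, Cd14 included, were at or above that value. Tirap was higher by 0.70 in replicate 3 with 4.63, 5.74 and 8.46 CPM. Ticam2 had 36.5, 21.7 and 39.0 CPM, and its replicate 2 deviated by -0.79 (percentile 4.8). Irak2 had 60.2, 50.6 and 38.5 CPM, and its replicate 3 deviated by -0.52 (percentile 6.5). Irak3 barely moved, with 15.9, 16.3 and 16.6 CPM. These 3 libraries differ in starting RNA, in the small nucleolar share given above and in depth, and the part of each in these deviations was not tested.

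**Figure D3:**
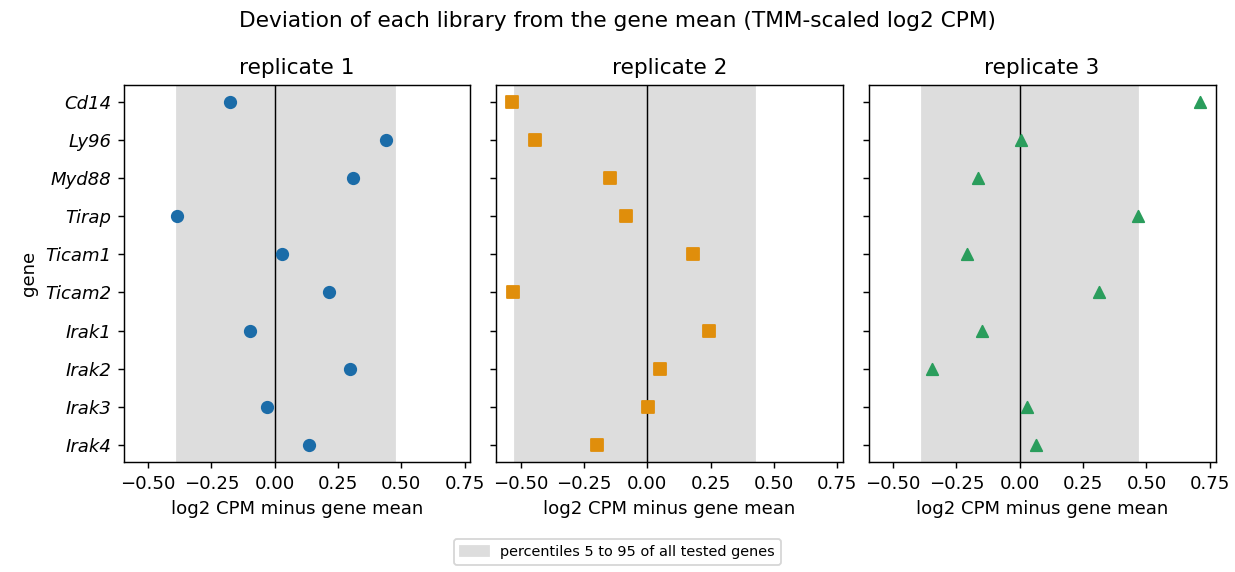
Difference of each library's TMM-scaled log2 CPM from the gene's mean over the 3 libraries, for the 10 genes, with grey bands for percentiles 5 to 95 of all 13985 genes tested. Cd14 lay right of the band in replicate 3 at 0.71 and just left of it in replicate 2 at -0.53, as did Ticam2, and Irak3 lay near 0 in each library.

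The spread between libraries was also expressed as edgeR's coefficient of biological variation per gene, an estimate of the spread beyond counting error. It is drawn toward values shared with other genes, so it is not the spread of the gene alone. Cd14 had 0.296, at percentile 94.1 of the genes tested, followed by Ly96 with 0.258 (percentile 88.0), Tirap with 0.251 (percentile 86.2) and Ticam2 with 0.233 (percentile 78.8). The kinases were at or below the coefficient of Irak2, 0.208 (percentile 61.1), and Irak3 had 0.163 (percentile 1.48). By this estimate the co-receptors and 2 of the adaptors had higher values than any of the kinases. Ly96 and Tirap were also the genes with the fewest counts. The median of the 10 genes was 0.199 and that of all genes tested 0.198.

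Starting RNA is the only label by which the libraries differ, so a slope on it was fitted for every gene with edgeR's quasi-likelihood test. None of the 10 genes passed the threshold of a Benjamini-Hochberg adjusted p of 0.05, while 160 of the 13985 genes tested did, which is 1.14% (1.03% rising and 0.114% falling with starting RNA). None of the 10 had an unadjusted p under 0.05 by edgeR, and DESeq2, run as an alternative, called none either and gave none under that value. The slope nearest to the threshold was that of Ticam2, at 0.37 (SE 0.185) on the log2 scale per doubling of RNA, with an unadjusted p of 0.0532 and an adjusted p of 0.733 by edgeR. Through the 2 libraries that remain, that slope was 0.84 without replicate 1 and -0.10 without replicate 2, with no test. Ly96 had the largest slope, 0.46 (SE 0.274), with an adjusted p of 0.899 by edgeR. Slopes were positive for 6 genes and negative for 4, with a median of 0.15 against 0.00 over all genes tested. Those signs rested on single libraries: 4 slopes changed sign without replicate 1 (Myd88, Tirap, Irak2 and Irak3), 4 others without replicate 2 (Cd14, Ticam1, Ticam2 and Irak1), and only those of Ly96 and Irak4 kept their sign with each library left out. The fit leaves 1 residual degree of freedom per gene and borrows the rest of the scatter from other genes, and amount cannot be told apart from any other difference between the libraries.

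A second set of transcript tables, made from the same reads without an alignment file among its inputs, gave other levels for some of the 10 genes. Tirap had 5.43, 4.80 and 9.94 TPM there, and its summed estimated counts were 7.23 times those of the gene tables, at percentile 99.4 of the detected coding genes, whose median ratio was 1.62. Ly96 had 13.3, 10.2 and 20.2 TPM and a count ratio of 3.42, at percentile 95.8. Cd14 was at the other end, with 116.2, 80.0 and 279.9 TPM and a count ratio of 1.14, at percentile 1.04. Irak2 had 99.5, 59.1 and 90.6 TPM, 2.50 times its mean in the gene tables. Cd14 was again above Irak2 in each library, yet their ranges overlapped in this set (80.0 TPM at the lowest for Cd14, 99.5 TPM at the highest for Irak2). Irak2 was separate from Irak1 in this set, and Tirap was above Ticam1 in every library, the reverse of their order in the gene tables. Spearman's rho between the orders of the 10 genes in both sets was 0.85, which describes 10 genes in 2 tables of the same libraries. The high replicate 3 of Cd14 and the high noncoding share of Irak2 (87.9 ± 3.7%, SD, n = 3) were present in both sets, whereas the share of Ly96 was 33.5 ± 2.9% (SD, n = 3). Neither the tools nor their use of strand are named in the labels or headers, and the cause of these differences was not tested.

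**Figure D4:**
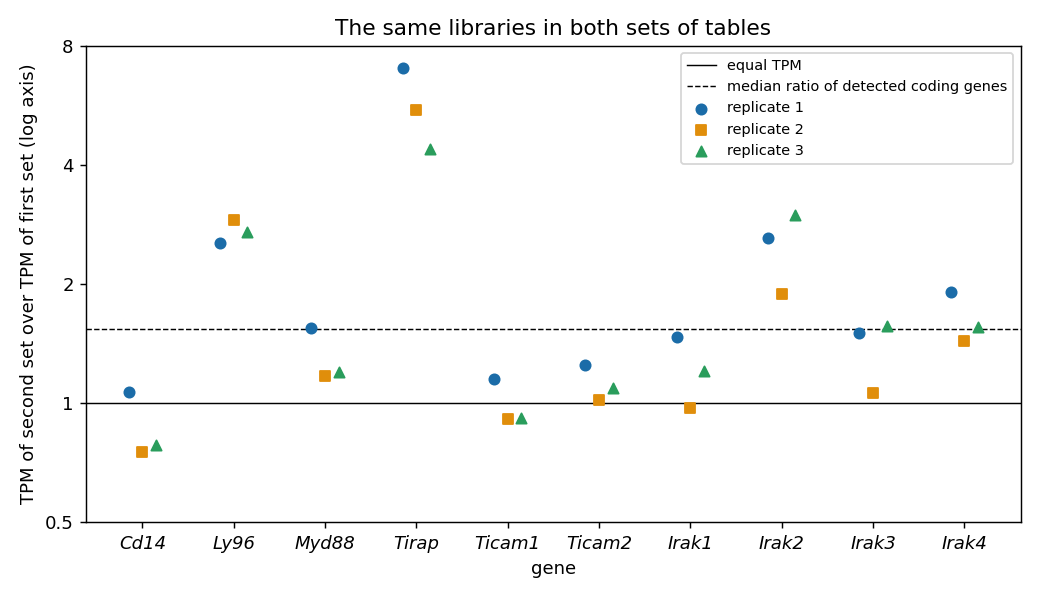
Ratio of the TPM of the second set to that of the gene tables (log axis) for the 10 genes in each library, with a solid line at equal TPM and a dashed line at 1.54, the median ratio of means over detected coding genes. Tirap lay highest in all 3 libraries, Ly96 and Irak2 lay above the dashed line, and Cd14 lay below it.

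Other genes share the ground of 7 of the 10, and for 5 of these at least 1 such gene is on the opposite strand. Without a statement on strand, reads from both cannot be told apart. Irak2 overlaps the antisense gene Gm43964 by 960 bases, which had 9.70 ± 3.71 TPM (SD, n = 3) in the gene tables. Gm43963, also opposite, overlaps it by 2488 bases and had 3.77 ± 1.34 TPM (SD, n = 3). Its expected counts were 262.11, 109.36 and 153.11, more than those of Gm43964 in each library. On its own strand Irak2 overlaps Gm43912 by 538 bases (4.56 ± 0.654 TPM, SD, n = 3). Irak3 overlaps Tmbim4 by 541 bases (20.6 ± 10.3 TPM), Myd88 overlaps Acaa1a by 1736 bases (28.0 ± 5.22 TPM) and Irak4 overlaps Twf1 by 3865 bases (8.93 ± 3.54 TPM; SD, n = 3 for each), each on the opposite strand. Tirap overlaps Srpr by 117 bases (9.55 TPM), also opposite. Ticam2 shares 14299 bases with Tmed7 on its own strand (2.41 ± 1.24 TPM, SD, n = 3). Cd14, Ly96 and Ticam1 overlap no annotated gene, so the values of the highest gene and of the interferon arm's adaptor do not have this limit.

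Beside the 10 genes, 32 other genes of the pathway were examined from a list ordered by role. Of these, 27 had at least 1 TPM in each library, and 0 of the 28 that entered edgeR's slope fit passed its threshold in either direction. Their median was 15.9 ± 4.67 TPM (SD, n = 3). The receptor Tlr4 itself had 8.01, 9.20 and 17.62 TPM, of the order of Ticam2 and Irak4 and below Cd14 in each library. Of the 6 receptor and ligand transfer genes, Cd180, a TLR4-like surface receptor of B cells and macrophages, was the highest with 92.7 ± 35.2 TPM, and Lbp, the serum carrier made mainly in liver, the lowest with 0.287 ± 0.105 TPM (SD, n = 3 for each). Of 4 negative regulators only Tollip, an adaptor that binds IRAK1, reached 1 TPM in every library, at 17.6 ± 4.46 TPM, and Sarm1 was the lowest at 0.04 ± 0.01 TPM (SD, n = 3 for each). Irak3, at 6.92 ± 1.45 TPM, was thus detected in each library as well. Of 12 genes that the list groups as IRAK partners, a grouping that was not tested here, 11 were detected in each library. Ripk1 was the highest of them at 30.4 ± 8.59 TPM. The exception was Peli3, an IRAK-binding ubiquitin ligase and the lowest of the 12, at 1.38 ± 1.03 TPM (SD, n = 3 for each). All 3 chaperones of Toll-like receptors were detected in each library, with Unc93b1 highest at 138 ± 37.7 TPM and Cnpy3 lowest at 26.1 ± 9.48 TPM. So were all 7 kinases and factors downstream, from Ikbke, a kinase that acts on IRF3, at 260 ± 12.5 TPM to Ikbkg at 17.6 ± 7.32 TPM (SD, n = 3 for each).

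Genes with a pattern over the 3 libraries most like that of Cd14, the most variable of the 10, and of Irak2, the least variable by TPM (SD of log2 TPM of 1.00 and 0.18), were looked up among 7585 coding genes whose mean count was 100 or more. Likeness was the Euclidean distance of log2(TPM + 0.1) centred on each gene's mean. Nearest to Cd14 were Trp53inp1 (7.07, 7.16 and 23.37 TPM; distance 0.0448), Asb1 (0.0694) and Cdkn1b (0.0697), and these 3 were all the genes within a distance of 0.1. Nearest to Irak2 were Sqstm1 (356.83, 301.24 and 295.23 TPM; distance 0.0416), Itga5 (0.0583) and Col4a2 (0.0705), of 6 genes within 0.1. With 3 libraries such likeness says only that these genes have the same relative levels in each, library scaling included.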

How the data were processed

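Chromatin-fraction RNA of 1 group of 3 libraries was analysed. Per the text listing that comes with each library, the authors used mm10 with annotation M21. The deposited gene and transcript tables hold expected counts and TPM, and a posterior mean TPM; the second set of transcript tables holds estimated counts and TPM, which the authors made from the reads. Aligner, counter, versions and strand setting: not given in the sources used here. The 10 genes and the pathway and marker lists were proposed with earlier results of these data known, although the rule for the 10 genes uses names only. All 10 genes are named in full. Of the pathway list, the highest and lowest of each role are named, with Tlr4 added because the 10 genes act on it. Transcripts are named where they hold at least 10% of their gene's mean TPM in either set; Myd88-202 was added after its values were seen.

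Expected counts were rounded and fitted in edgeR 4.0.16 (under R 4.3.3) after filterByExpr and TMM scaling, with a slope on log2 starting RNA over all annotated genes. Control sequences and other entries outside annotated genes (1.08%, 0.299% and 0.332% of counts in replicates 1, 2 and 3) were left out. The 55536 gene identifiers were matched to GENCODE M21 (GRCm38), which gave symbols, types and 1-based coordinates. The fit was tested on simulated data. Logs of TPM used a pseudocount of 0.1. Intervals of CPM are exact binomial intervals at 95%. Where no read was counted, as many as 3 remain possible (0.184, 0.185 and 0.241 CPM in replicates 1, 2 and 3). Since nothing says that the samples are separate animals, the SD values measure only the spread between these samples. Alternatives covered DESeq2 1.42.0 and its size factors, no count filter, the second set, posterior mean TPM, rescaling over coding genes, detection limits of 0.5 and 5 TPM, other pseudocounts and each library left out. Scalings of the replicate 3 results and coding transcripts alone were added after seeing the data.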

Additional observations from a re-analysis of the deposited data

How the results depend on the processing

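Of 218 values under alternative settings, 165 stayed within the spread between libraries (1 SE for a slope without a test), within 1.5 times for a count, or on the same side of 0 and of the threshold for a tested slope. Another 52 moved further, and 1 tested slope changed sign. The number of separate neighbours in the second set was among the 165, at 3 in both sets, although the pairs differed. Ticam1 and Tirap were separate in both sets, in reversed order. The number of genes called in the slope fit was 160, and became 66 with DESeq2's size factors, 88 with DESeq2's Wald test, 284 without a filter on low counts and 267 in the second set of tables. None of the 10 genes was called under any of these, and 1 had an unadjusted p under 0.05 in the second set. Of the slopes fitted with a test, that of Irak3 turned, from -0.02 in the gene tables to 0.062 in the second set. With 1 library left out, slopes have no test, and those of 8 of the 10 genes changed sign, 4 without replicate 1 and 4 without replicate 2. For Cd14 they ran from -0.89 to 1.24. Replicate 3 lies midway in log2 starting RNA, so a sign changes only where it is a gene's highest or lowest library. The median of the 10 genes, 8.62 TPM, was 13.4 TPM in the second set and 43.7 TPM when TPM was rescaled over coding genes, and 6.96 to 9.57 TPM with 1 library left out. The count of genes at 1 TPM in every library was 9 with each library left out, 7 at a limit of 5 TPM, and 10 at a limit of 0.5 TPM, with the posterior mean and in the second set. Neighbours in the order with separate ranges fell from 3 to 1 with protein-coding transcripts only. There were 4 with TPM rescaled over coding genes, where Irak3 and Ly96 became separate too. The count of genes highest in replicate 3, 9 by TPM, was 4 by TMM-scaled CPM and 4 with TPM rescaled over coding genes. The deviation of replicate 3 in Cd14, 1.07 on the log2 scale, was 1.73 by TPM. Rescaling over coding genes moved the TPM of all 10 genes by at least 1 SD, the second set moved 6, protein-coding transcripts only moved 6, and the posterior mean moved 0. Without replicate 3, Cd14 had a mean of 107.5 TPM in place of 191.

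With a library left out the slope has no residual degrees of freedom, so no count of calls was made there. No paired analysis was possible because the series has 1 group. Counts of 30 to 67 for Ly96 limit its precision, and 3 libraries without untreated cells give levels only.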

Other observations

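The antisense gene Gm43964 within Irak2 had only 21, 15 and 15 expected counts in replicates 1, 2 and 3 of the gene tables. Its TPM was 9.70 there and 96.6 in the second set of tables (means of 3 libraries), with a count ratio of 18.4. Srpr, opposite to Tirap, had 9.55 and 23.0 TPM in the same comparison. Among the other pathway genes, Cd36, a scavenger receptor chosen here after its values were seen, had 21.43, 49.78 and 35.29 TPM in replicates 1, 2 and 3, and its slope of -0.55 on log2 starting RNA did not pass the threshold.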
